A study of Mus musculus with 2 samples.

Results

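Spliceosomal small nuclear RNAs (snRNAs) were followed in RNA that came down with chromatin in enChIP-RNA-Seq, in which a tagged DNA-binding protein is immunoprecipitated from crosslinked, sonicated cells and the co-purified RNA is sequenced. Entries were taken by their gene symbol (Rnu1, Rnu2, Rnu4, Rnu5, Rnu6, Rnu7, Rnu11 or Rnu12, the U1 copy Gm22068 and the U6 copy Gm22246) or by a gene description that holds the phrase small nuclear RNA. This rule took 55 of 48876 listed transcripts. Of these, 9 were RNAs named as snRNAs, and 46 were transcripts of protein genes (Lsm1 to Lsm7, Snapc1 to Snapc5 and U2af1l4) whose descriptions hold the same phrase. No U2, U4 or U7 entry was among the 9 RNAs, so all listed transcripts to which the GENCODE M1 annotation gives a U type were described as well. With the 6 spliceosomal entries of the rule, these were 224 transcripts.

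The cells were Ba/F3, a mouse hematopoietic line of C3H origin. One population expressed 3xFN-Tel-TAL, a TAL protein that recognizes telomeric TTAGGG repeats and carries a 3xFLAG tag and a nuclear localization signal. The other expressed 3xFNLDD, tagged LexA without a telomeric target, as the negative control. The libraries are called Tel-TAL library and control library below. Both were immunoprecipitated with the anti-FLAG M2 antibody, and each library was made from 60 ng of RNA. There was 1 library per condition, so no difference below has a replicate check and no p-value is given. A read count in an immunoprecipitate does not separate how much of an RNA the cells held from how much of it came down.

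snRNAs are short nuclear RNAs that work as ribonucleoproteins, the snRNPs. U1 pairs with the 5′ splice site of an intron, U2 pairs with the branch point, and U4, U6 and U5 join as the tri-snRNP, in which U6 is released from U4 and forms the catalytic center. U11, U12, U4atac and U6atac do the corresponding work in the minor spliceosome, which removes a small class of introns, whereas U7 processes the 3′ ends of histone mRNAs. Mammalian genomes hold many copies and pseudogenes of most of these RNAs, so a read can match several genes.

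The copies that carry the main comparison are shown first, as DNA letters of the RNA strand in NCBIM37, 5′ to 3′. The most-read U1 entry was Gm22068 (chr11:87236369-87236532, plus strand), which lies in an intron of Tex14. The next were Gm22042 (chr4:51825355-51825519, minus strand), outside other annotated genes, and Gm26232 (chr3:96254369-96254534, plus strand), in an intron of BC107364 on the opposite strand. Capitals mark bases that differ between Gm22068 and the other 2 copies, in each copy.
Gm22068: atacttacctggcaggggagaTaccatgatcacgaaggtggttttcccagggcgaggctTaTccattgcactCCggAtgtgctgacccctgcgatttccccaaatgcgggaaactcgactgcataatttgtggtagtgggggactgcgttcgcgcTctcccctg
Gm22042: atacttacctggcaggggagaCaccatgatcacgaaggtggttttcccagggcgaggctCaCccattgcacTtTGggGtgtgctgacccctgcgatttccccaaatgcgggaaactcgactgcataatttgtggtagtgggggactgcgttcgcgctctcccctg
Gm26232: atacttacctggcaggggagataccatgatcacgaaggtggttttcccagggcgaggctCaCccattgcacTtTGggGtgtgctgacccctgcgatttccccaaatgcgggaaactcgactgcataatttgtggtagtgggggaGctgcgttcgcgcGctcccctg

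Both Gm22042 and Gm26232 carried the substitutions T60C, T62C, C73T, C74G and A77G, with positions counted from 1 at the 5′ end of Gm22068. Gm22042 also had T22C, and Gm26232 also had T156G. The first 2 of these change the letters CTTATCC of Gm22068 into CTCACCC, in the second stem-loop of U1, the one that binds the protein Snrpa. Identity to Gm22068 was 95.8% for Gm22042 and 95.2% for Gm26232, over alignments with 1 and 2 gap positions. The gaps are bases inserted in these copies, which are also set in capitals. All 3 hold ACTTACCTG, the letters that pair with the 5′ splice site, at bases 3 to 11.

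For U2, U4, U12 and U11, the most-read copy is shown, with capitals for letters of known function. In U2 (Gm24950, chr11:101503062-101503252, plus strand) these are GTAGTA, which pairs with the branch point. In U4 (Gm24265, chr5:115940263-115940403, plus strand) they are AATTTTTGA, the Sm protein site. In U12 (Rnu12, chr15:82980074-82980224, plus strand) they are TAAGGAA, and in U11 (Rnu11, chr4:131825995-131826128, minus strand) AAAAAGGG, which pair with the branch point and the 5′ splice site of minor introns. All of these lie outside other annotated genes.
Gm24950: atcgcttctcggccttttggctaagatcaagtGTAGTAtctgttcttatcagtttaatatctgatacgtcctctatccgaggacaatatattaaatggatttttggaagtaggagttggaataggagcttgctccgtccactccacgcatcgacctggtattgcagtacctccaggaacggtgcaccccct
Gm24265: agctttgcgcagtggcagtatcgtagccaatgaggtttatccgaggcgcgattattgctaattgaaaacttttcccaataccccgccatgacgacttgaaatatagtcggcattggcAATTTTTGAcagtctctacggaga
Rnu12: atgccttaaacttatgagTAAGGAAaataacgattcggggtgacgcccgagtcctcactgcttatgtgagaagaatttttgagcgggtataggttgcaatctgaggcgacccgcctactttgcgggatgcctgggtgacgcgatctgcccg
Rnu11: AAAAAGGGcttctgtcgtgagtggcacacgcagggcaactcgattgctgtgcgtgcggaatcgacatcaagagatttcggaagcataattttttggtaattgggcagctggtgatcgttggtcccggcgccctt

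These letters were searched on the RNA strand only, and percentages given for them are over the annotated snRNAs of all types. ACTTACCTG was present in 22 of the 55 listed U1 copies that have a sequence, and in 3.87% of all 1423 annotated snRNAs. GTAGTA was present in 11 of 16 listed U2 copies (3.65% of all annotated snRNAs). AATTTTTGA was present in 2 of 17 listed U4 copies (0.773%), TAAGGAA in 2 of 2 U12 copies (0.773%) and AAAAAGGG in the single listed U11 copy (0.422%). The copies that hold their letters had nearly all of the reads of U1 (13116 of the reads in the control library against 465 in copies without them), U2 (7176 against 7) and U4 (1414 against 28). The telomeric letters TTAGGG were in none of 223 copies with a sequence and CCCTAA was in 2, of which the more read had 6 reads in both libraries together. Either was present in 1.76% of all annotated snRNAs.

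The total was 7206183 reads for the control library and 9774844 for the Tel-TAL library. In reads per 1000000 reads of a library (RPM), 3 reads are worth 0.416 and 0.307. Below, a ratio is the RPM in the Tel-TAL library over that in the control library on the log2 scale. It is followed by its exact 95% Clopper-Pearson interval, which covers counting error only. A threshold of 1.4, which the methods describe for the ratio of read counts, was applied here to the ratio of RPM, and the library totals differ by a factor of 1.36. It is 0.485 on the log2 scale, and transcripts with fewer than 20 reads in both libraries together were not named as above or below it. The median ratio was 0.39 over the 16468 transcripts with at least 20 reads, although RPM sums to the same total in both libraries. Together, 11 RNAs above 1% of a library held 84.8% of the control library and 81.1% of the Tel-TAL library. Totals that leave out these 11 RNAs lower every ratio by 0.32. TMM scaling, which sets the bulk of transcripts equal, lowers every ratio by 0.37. Differences between 2 snRNAs do not depend on the scaling. Of the hematopoietic markers fixed for Ba/F3, 6 of the 7 that were listed had at least 20 reads (Csf2rb had 583 and 1052), whereas Kit had 2 reads in each library. Markers of other cell types summed to 100 reads in the control library and 91 in the Tel-TAL library over 7 genes, with 1 of them, Hbb-b1, at 20 reads or more.

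Of the 55 entries taken by the rule, 21 had at least 20 reads, 12 of these were above 1.4 and 1 was below 1/1.4. Among all transcripts with at least 20 reads, 44.2% were above and 11.1% were below. With TMM scaling 9 of the 21 were above and 5 below, beside 24.6% and 22.6% of all transcripts. The median ratio of the 21 was 0.66, or 0.29 with TMM scaling. Of the 9 RNAs, 8 had at least 20 reads and 5 of these were above 1.4. Of the 6 spliceosomal RNAs, all had at least 20 reads and 3 (Gm22068, Gm22246 and Rnu11) were above, with a median of 0.24. With TMM scaling 2 of the 6 were above and 2 below, and the median turned to -0.13.

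The levels spanned several orders of magnitude. Gm22068 was the 21st most-read transcript in the control library and the 18th in the Tel-TAL library, whereas Rnu5g and Rnu11 were near the detection floor. The U3 RNAs Rnu3b3 and Rnu3a, which help to process ribosomal RNA and are not spliceosomal, had 12369 and 1142 reads in the control library and 71578 and 6400 in the Tel-TAL library (ratios of 2.09 and 2.05). Rnu73b, annotated as a C/D snoRNA, had 0 and 3 reads, at the floor of both libraries.

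**Figure D1:**
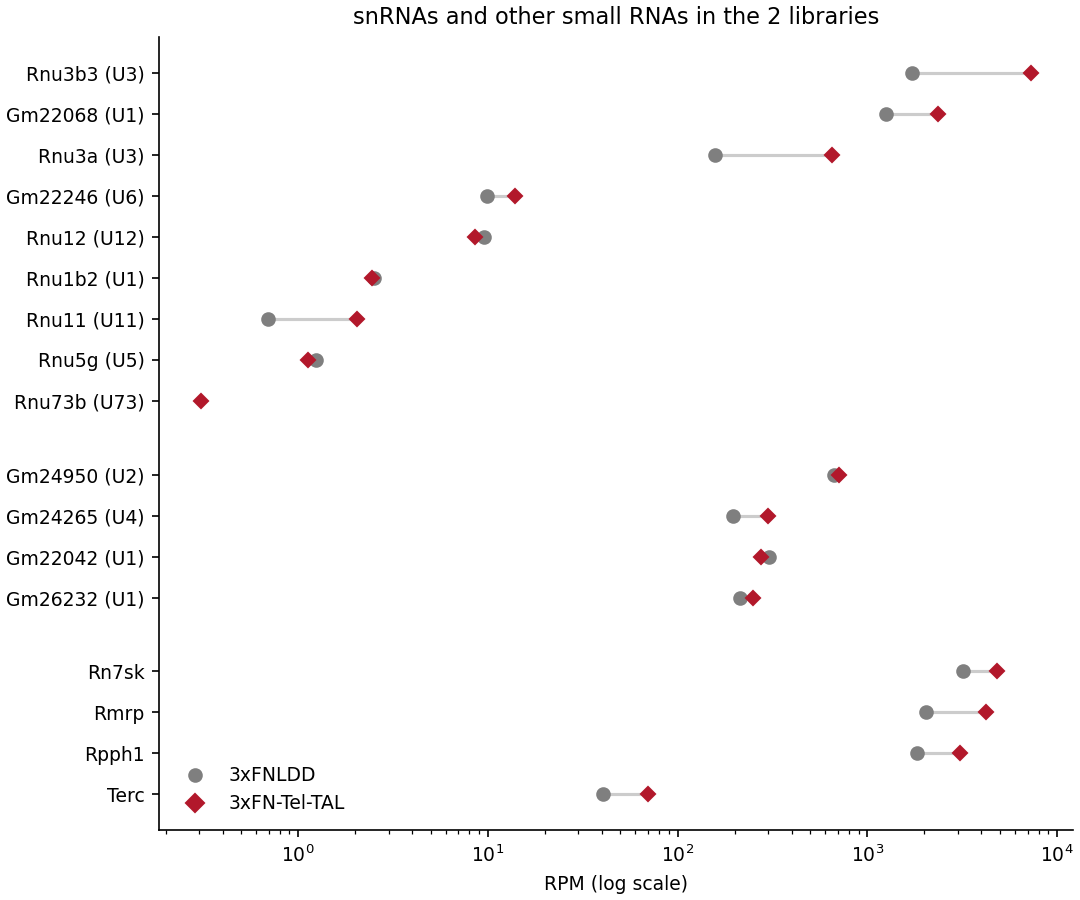
RPM (log axis) of the 9 RNA entries taken by the rule, of 4 further U2, U4 and U1 copies and of 4 other non-coding RNAs in 3xFNLDD (grey circles) and 3xFN-Tel-TAL (red diamonds), 1 library each. Gm22068 stood at 1257 and 2353 RPM, Rnu12 at 9.58 and 8.59, and Rnu73b has no grey circle because it had 0 reads in 3xFNLDD.

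U1 was the most-read spliceosomal RNA. Gm22068 had 9061 reads (1257 RPM) in the control library and 22997 reads (2353 RPM) in the Tel-TAL library, a ratio of 0.90 (0.87 to 0.94), and of 0.54 with TMM scaling. Its whole interval lay above 1.4 by RPM. The other U1 entry of the rule, Rnu1b2, had 18 and 24 reads, a ratio of -0.02 (-0.97 to 0.94), so at this depth its ratio could not be told from that of Gm22068 (difference 0.93, -0.04 to 1.87). Rnu1b2 has no position in the annotation used here. The host gene of Gm22068, Tex14, had 3 reads in the control library and 0 in the Tel-TAL library.

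All 56 listed U1 copies together had 13599 reads in the control library and 29915 in the Tel-TAL library, which is 0.189% (0.186% to 0.192%) and 0.306% (0.303% to 0.310%) of the library. The ratio of the sum was 0.70 (0.67 to 0.73), and 0.33 with TMM scaling. Gm22068 held 73.7% of these reads, and 20 of the 56 copies had at most 3 reads. Only 1 of several identical annotated genes is listed: the sequence of Gm22068 is annotated 7 times and that of Gm26232 3 times, each with 1 entry in the data. Over all U types, 17 sequences are annotated more than once, of which 7 had 1 entry, 10 had none and 0 had more than 1. The 7 annotated genes with the sequence of Gm22068 thus cannot be told apart by sequence. Whether reads of all 7 were counted under this entry is not given in the sources used here.

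The U1 copies did not share 1 ratio. Gm22042 had 2183 reads (303 RPM) in the control library and 2677 (274 RPM) in the Tel-TAL library, a ratio of -0.15 (-0.23 to -0.06) that was below 1/1.4 with TMM scaling, at -0.51. Gm26232 had 1531 (212 RPM) and 2444 (250 RPM), a ratio of 0.23 (0.14 to 0.33) that turned to -0.13 with TMM scaling. The ratio of Gm22068 exceeded that of Gm22042 by 1.05 (0.96 to 1.14) and that of Gm26232 by 0.67 (0.57 to 0.77). Gm26232 and Gm22042, which share the letters CTCACCC, also differed, by 0.38 (0.26 to 0.50). These values come from 1 library each, and the intervals hold no variation between preparations.

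Copies with the stem-loop letters of Gm22068 and those with the letters of Gm26232 were then summed, a grouping chosen after the ratios of the copies had been seen. The 25 listed copies with CTTATCC had 9783 and 24683 reads, a ratio of 0.90 (0.86 to 0.93). Gm22068 alone held 9061 and 22997 of these reads. The 8 copies with CTCACCC and without CTTATCC had 3745 and 5157 reads, a ratio of 0.02 (-0.04 to 0.08), so this form made up 27.5% of the U1 reads in the control library and 17.2% in the Tel-TAL library. The 2 sums differed by 0.87 (0.80 to 0.94). Gm22042 and Gm26232, whose ratios prompted the grouping, held 3714 and 5121 of the CTCACCC reads, so this difference restates their ratios and is no further evidence. CTTATCC is present in 3.94% and CTCACCC in 1.34% of all annotated snRNAs, on the RNA strand. Of the copies with at least 20 reads, 7 of 10 with CTTATCC and 0 of 3 with CTCACCC were above 1.4, beside the 44.2% of all transcripts. With TMM scaling these counts were 6 and 0, beside 24.6%, and 2 and 1 were below 1/1.4, beside 22.6%. Gm22068, Gm22042 and Gm26232 are among the counted copies, so the counts are no further evidence either. The 22 copies with neither had 53 and 51 reads in all, and 1 of them, Gm25189, had 16 and 10 (ratio -1.12, -2.42 to 0.11).

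Other copies with CTTATCC had fewer reads than Gm22068. Gm22220 (chr12:55340225-55340373, plus strand) had 398 and 999 reads, a ratio of 0.89 (0.72 to 1.06), and differed from Gm22068 by no more than counting error (0.02, -0.16 to 0.19). It is a diverged copy of 75.9% identity that lacks ACTTACCTG. Its longest run shared with Gm22068 was 72 bases, positions 35 to 106 of Gm22068, and is set in capitals here.
Gm22220: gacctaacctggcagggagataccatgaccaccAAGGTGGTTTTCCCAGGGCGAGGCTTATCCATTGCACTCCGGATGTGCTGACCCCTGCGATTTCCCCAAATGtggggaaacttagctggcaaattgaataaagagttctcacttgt

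Gm23238 on chromosome 19, at 97.6% identity, had 184 and 413 reads and a ratio of 0.73 (0.47 to 0.99), or 0.36 with TMM scaling, with a shared run of 129 bases. Among the less-read copies, Gm24924 had 9 and 34 reads (1.48, 0.39 to 2.72), Gm26244 had 45 and 80 (0.39, -0.15 to 0.95) and Gm23686 had 24 and 29 (-0.17, -0.998 to 0.68). The intervals of these 3 overlap. How reads that match several copies were assigned is not given in the sources used here, and its part in the differences between copies was not tested.

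**Figure D2:**
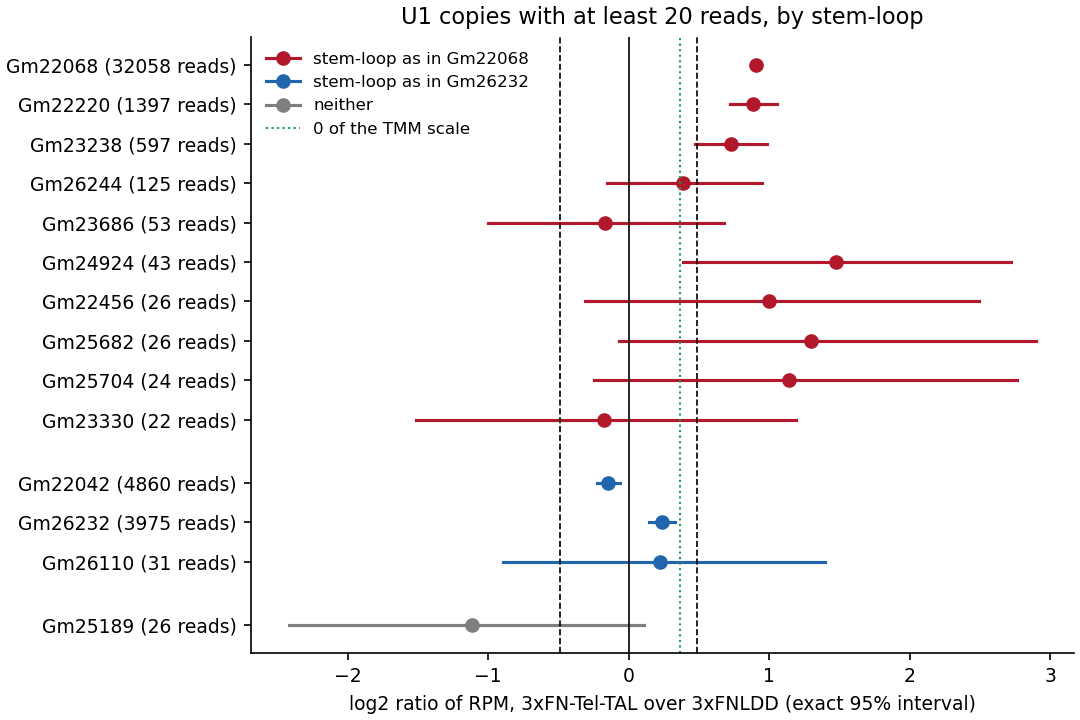
Ratio (log2, exact 95% interval) of the 14 U1 copies with at least 20 reads and a sequence, grouped by stem-loop letters, with the reads of both libraries together beside each name. Dashed lines mark 1.4 and 1/1.4 and the dotted line is 0 on the TMM scale. Gm22068, Gm22220 and Gm23238 lie to the right of Gm22042 and Gm26232, and copies under about 100 reads have wide intervals.

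U2 gave a different picture from U1. Its most-read copy, Gm24950, had 4822 reads (669 RPM) in the control library and 6930 (709 RPM) in the Tel-TAL library, a ratio of 0.08 (0.03 to 0.14). Gm23444, which differs from it by the single substitution G109C (counted from the 5′ end of Gm24950), had 2221 and 2987 reads, a ratio of -0.01 (-0.09 to 0.07). Gm26316, with C170T alone, had 81 and 90 reads (-0.29, -0.74 to 0.16). The ratios of the 2 leading copies differed by 0.10 (-0.0005 to 0.19). The sequence of Gm24950 is annotated 4 times, all on chromosome 11. The 16 listed U2 copies summed to 7183 and 10096 reads, a ratio of 0.05 (0.01 to 0.10) by RPM that turned to -0.32 with TMM scaling.

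The ratio of the U1 sum exceeded that of the U2 sum by 0.65 (0.59 to 0.70), a difference in which the scaling cancels. The U1 copies with CTCACCC alone, however, did not separate from U2 (-0.03, -0.10 to 0.05).

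U4, which keeps U6 inactive until the spliceosome is assembled, was read almost entirely from Gm24265. It had 1406 reads (195 RPM) in the control library and 2941 (301 RPM) in the Tel-TAL library, a ratio of 0.62 (0.53 to 0.72), or 0.26 with TMM scaling. The 17 listed copies summed to 1442 and 2976 reads, with a ratio of 0.61 (0.51 to 0.70). Gm24265 held 98.4% of these, and the 16 other copies had 36 and 35 reads together. The ratio of U4 exceeded that of U2 by 0.55 (0.45 to 0.66), and U1 minus U4 was 0.09 (-0.004 to 0.19).

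U6 had far fewer reads than its partner U4. Gm22246 had 71 reads (9.85 RPM) in the control library and 136 (13.9 RPM) in the Tel-TAL library, a ratio of 0.50 (0.07 to 0.93) that lay just above the threshold and fell to 0.13 with TMM scaling. Its sequence is annotated 43 times on 18 chromosomes, with 1 entry. All 111 listed U6 copies, of 936 annotated, had 214 and 362 reads, a ratio of 0.32 (0.07 to 0.57) by RPM and of -0.05 with TMM scaling. Of these copies 79 had at most 3 reads, and the copies other than Gm22246 had a ratio of 0.22 (-0.09 to 0.53). The ratio of U4 exceeded that of U6 by 0.29 (0.02 to 0.55), and the ratio of U6 exceeded that of U2 by 0.27 (0.02 to 0.52).

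U5 was close to the floor. Rnu5g had 9 and 11 reads (-0.15, -1.56 to 1.30, or -0.52 with TMM scaling), and all 5 listed copies had 20 and 24 (-0.18, -1.09 to 0.76). A difference between the libraries was not detectable at this depth.

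Per length, the levels of the 5 major spliceosomal types ranked U1, U2, U4, U6 and U5 in both libraries. Reads of all listed copies divided by the length of the most-read copy gave 11507 RPM per kb for U1 in the control library and 18661 in the Tel-TAL library. The corresponding levels were 5219 and 5408 for U2, 1419 and 2159 for U4, 278 and 346 for U6, and 23.9 and 21.2 for U5. U1 thus stood 2.20 and 3.45 times above U2, 8.11 and 8.64 times above U4, 41.5 and 53.9 times above U6 and 481 and 882 times above U5. The U5 values rest on the 44 reads of both libraries. Only 111 of 936 annotated U6 copies and 5 of 10 annotated U5 copies are listed, beside 56 of 206 for U1. For U2 and U4 these counts were 16 of 51 and 17 of 43. The values are thus levels of reads in listed copies and not amounts in the cells. The part of unlisted copies and of read assignment was not tested.

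**Figure D3:**
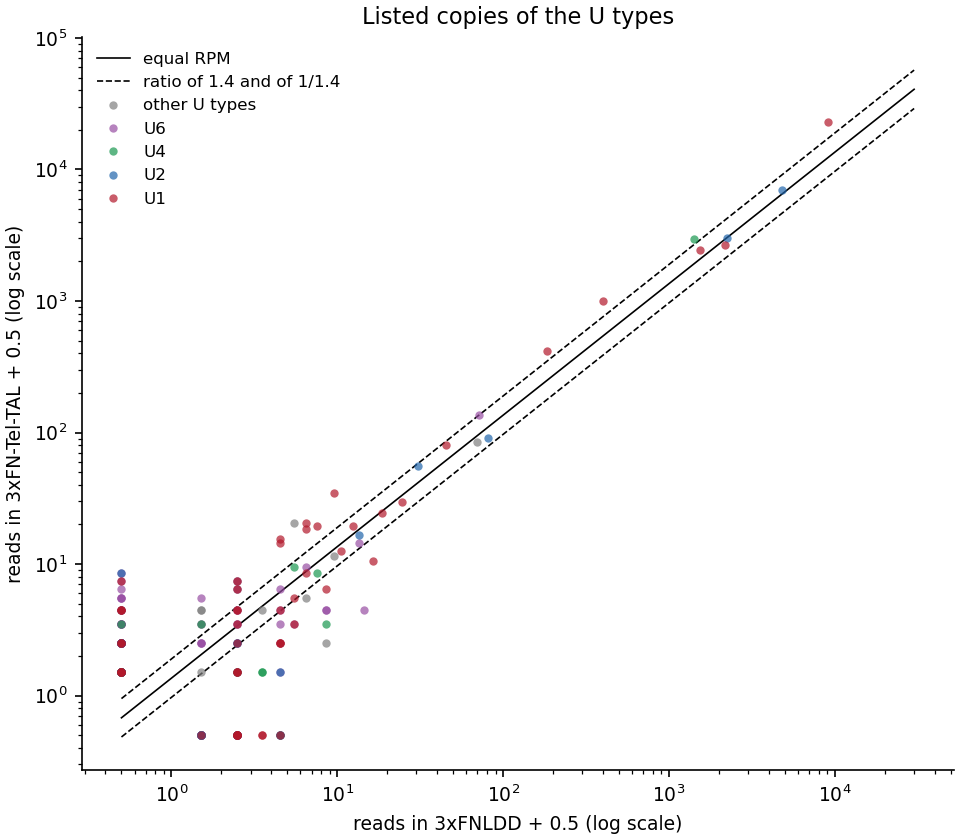
Reads of the 224 listed copies in 3xFN-Tel-TAL against those in 3xFNLDD, each with 0.5 added so that 0 can be drawn on log axes, colored by U type. The solid line is equal RPM and the dashed lines are ratios of 1.4 and 1/1.4. Gm22068 and Gm24265 lie above the upper line, the leading U2 copies and Gm22042 lie between the lines, and most copies have fewer than 20 reads.

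Among the minor spliceosomal RNAs, U12 was the best covered. Rnu12 had 69 reads (9.58 RPM) in the control library and 84 (8.59 RPM) in the Tel-TAL library, a ratio of -0.16 (-0.63 to 0.32) that was below 1/1.4 with TMM scaling, at -0.52. The ratio of Gm22068 exceeded it by 1.06 (0.58 to 1.54). Summed over all listed copies, the ratio of U1 exceeded that of U12 by 0.82 (0.34 to 1.29). For the sums of U4 the difference from U12 was 0.73 (0.24 to 1.21), whereas U2 and U12 did not separate (0.17, -0.31 to 0.65). Rnu11, its partner in the U11/U12 snRNP, had 5 and 20 reads, a ratio of 1.56 (0.10 to 3.33). The 2 partners differed by 1.72 (0.16 to 3.55), on 25 reads of Rnu11 in all.

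The minor counterparts of U4 and U6 rested on even fewer reads. The 1 listed U4atac copy, Gm22710, had 8 and 2 reads (-2.44, -5.71 to -0.11) and the 5 U6atac copies had 5 and 21 together (1.63, 0.18 to 3.39). The 9 minor copies summed to 87 and 129 reads, with a ratio of 0.13 (-0.28 to 0.54). U7, which does not take part in splicing, had 7 and 16 reads over 10 copies (0.75, -0.61 to 2.28), and none of these copies reached 20 reads.

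**Figure D4:**
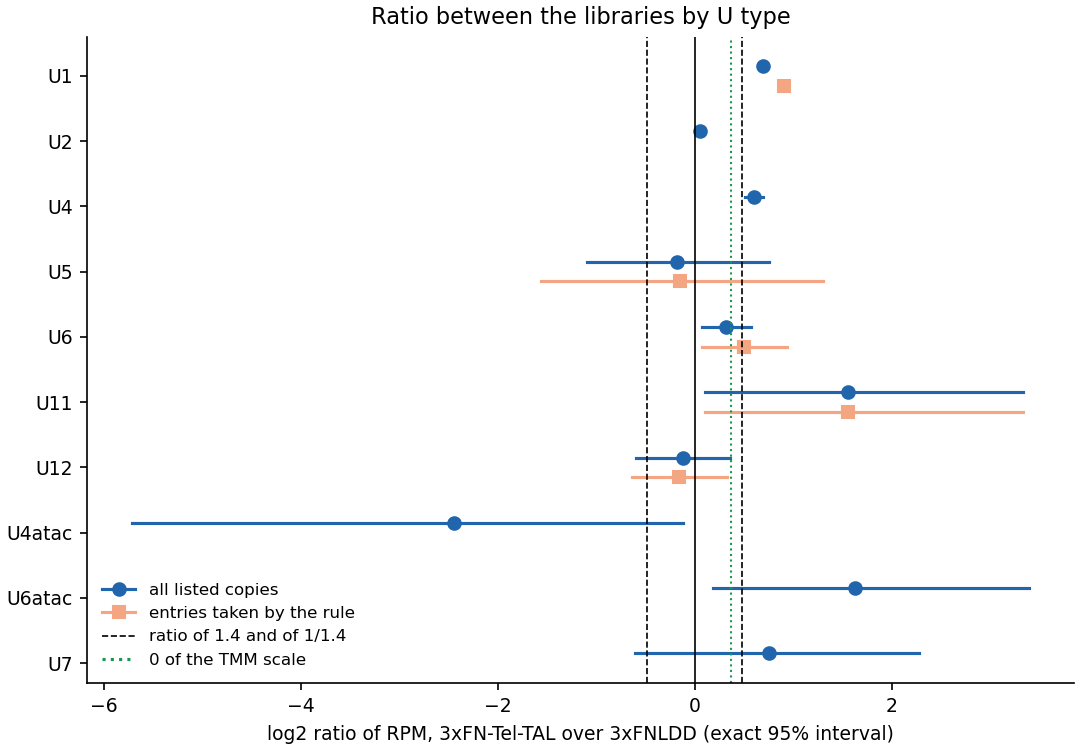
Ratio (log2, exact 95% interval) of each U type, summed over all listed copies (blue circles) and over the entries taken by the rule (orange squares). Dashed lines mark 1.4 and 1/1.4 and the dotted line is 0 on the TMM scale. U1 and U4 lie above 1.4, U2 lies near 0, and the intervals of U5, U11, U4atac, U6atac and U7 are wide.

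Over the 224 listed copies, 26 had at least 20 reads. Of these 10 were above 1.4 and 1 was below 1/1.4, beside the 44.2% and 11.1% of all transcripts. With TMM scaling 7 were above and 9 below, beside 24.6% and 22.6%. The median ratio of the 26 was 0.23 against 0.39 for all transcripts. The other 198 copies summed to 302 and 439 reads, a ratio of 0.10 (-0.11 to 0.32), and 125 of them had at most 3 reads. Of the 25 copies with at least 20 reads and a position, 17 lay outside other annotated genes, and the other 8 lay in introns, 6 of them on the strand of the host gene. Host genes had few reads: Rock1, which holds Gm24924, had 58 and 80 (0.02, -0.48 to 0.54) and Ss18, which holds Gm26244, had 28 and 58 (0.61, -0.06 to 1.32).

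Other small RNAs gave a scale for these values. Among single-exon transcripts of at most 350 bases with at least 20 reads, the 25 annotated as snRNA had a median ratio of 0.23, the 75 snoRNAs 0.95, the 117 miscellaneous RNAs 0.41 and the 84 miRNA precursors 0.32, which with TMM scaling became -0.13, 0.58, 0.04 and -0.05. Rn7sk, the 7SK RNA that holds back the elongation factor P-TEFb, had 23145 and 47517 reads, a ratio of 0.60 (0.58 to 0.62). The ratio of U1 exceeded it by 0.10 (0.06 to 0.14), that of U4 did not separate from it (0.01, -0.09 to 0.10), and U2 minus Rn7sk was -0.55 (-0.60 to -0.50). Rmrp, the RNA of RNase MRP, had 14692 and 41257 reads (1.05, 1.02 to 1.08), and U1 and U2 differed from it by -0.35 (-0.39 to -0.31) and -0.998 (-1.05 to -0.947). Rpph1, the RNA of RNase P, had 13219 and 30279 reads (0.76, 0.73 to 0.79). Terc, the template RNA of telomerase, had 292 and 679 reads (0.78, 0.58 to 0.98). This interval held the ratios of the sum of U1 copies, Gm22068, the sum of U4 copies, Rn7sk and Rpph1, and differences from Terc were not computed.

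Counts of protein genes measure their RNA and not the proteins. Of the 46 protein gene transcripts that the rule took, 13 had at least 20 reads, 7 of these were above 1.4 and 1 was below 1/1.4, beside the 44.2% and 11.1% of all transcripts. With TMM scaling 5 were above and 3 below, beside 24.6% and 22.6% of all transcripts. Lsm genes encode the ring that binds the 3′ end of U6 and, with Lsm1, a cytoplasmic ring of mRNA decay. Of 17 Lsm transcripts 7 had at least 20 reads and 5 were above 1.4, and with TMM scaling 3 were above and 1 below. The 3 Lsm2 transcripts had ratios of 0.31 (44 and 74 reads), 1.60 (9 and 37) and 0.66 (7 and 15). The 2 Lsm6 transcripts had ratios of -0.19 (68 and 81, or -0.56 with TMM scaling) and 0.80 (14 and 33). Lsm1 had 8 and 26 reads (1.26, 0.08 to 2.61) and Lsm4 had 2 and 23 (3.08, 1.07 to 6.21).

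Snapc genes encode SNAPc, the complex that binds the promoters of snRNA genes. Of 17 Snapc transcripts 6 had at least 20 reads. Of these 2 were above 1.4 and 1 below 1/1.4, beside the 44.2% and 11.1% of all transcripts. With TMM scaling 2 were above and 2 below, beside 24.6% and 22.6%. Snapc4 had 65 and 105 reads (0.25, -0.21 to 0.72) and Snapc2 had 4 and 21 (1.95, 0.39 to 3.95). The 4 Snapc3 transcripts lay on both sides of 0, with ratios of 1.61 (7 and 29 reads), -0.89 (26 and 19), -0.27 (16 and 18) and 0.15 (8 and 12), and all but the first had an interval that held 0. The 12 transcripts of U2af1l4, a relative of the U2 auxiliary factor, had at most 13 reads each.

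The wider set of snRNP genes was counted with reads summed per gene symbol. Of 98 symbols in 10 lists, 94 were listed and 80 had at least 20 reads. Of these 34 were above 1.4 and 4 were below 1/1.4, beside 41.1% and 11.5% of all 12517 symbols with as many reads. With TMM scaling 15 were above and 15 below, beside 20.4% and 22.4%. The median ratio of the 80 was 0.37, as was that of all symbols. The lower bound of the interval passed 1.4 for 4 genes, and the share of all symbols that pass it was not computed.

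By list, the counts above 1.4 were 2 of 5 for Sm core proteins, 3 of 4 for the LSm proteins of U6, 1 of 3 for U1, 5 of 10 for U2, 3 of 8 for U5, 4 of 8 for U4/U6 and the tri-snRNP, 1 of 5 for U11/U12 and 0 of 2 for U7. They were 6 of 16 for snRNA transcription and 3′ processing, and 9 of 19 for snRNP assembly and transport, beside 41.1% of all symbols. The Sm, U2, transcription and assembly lists each had 1 gene below 1/1.4, beside 11.5%. With TMM scaling, the counts above were 1, 2, 0, 1, 1, 2, 0, 0, 4 and 4 in the same order, beside 20.4%. Those below were 2, 0, 0, 3, 2, 1, 1, 1, 2 and 3, beside 22.4%. The most-read Sm gene, Snrpb, had 61 and 70 reads (-0.24, -0.76 to 0.28), and the U1 gene Snrpc had 169 and 236 (0.04, -0.25 to 0.34), so neither was above the threshold.

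Genes of the other snRNPs lay on both sides of the threshold. Sf3b3, a subunit of the U2 complex SF3b, had 92 and 191 reads (0.61, 0.25 to 0.99), Prpf8, the U5 scaffold, had 179 and 221 (-0.14, -0.43 to 0.16) and Prpf31 of U4/U6 had 50 and 125 (0.88, 0.40 to 1.39). Zcrb1 of U11/U12 had 89 and 196 (0.70, 0.33 to 1.08), and Zfp473 of U7 had 113 and 130 (-0.24, -0.61 to 0.14). Summed over its transcripts, Lsm6 had 83 and 116 (0.04, -0.38 to 0.47).

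Among the factors that make and move snRNPs, Ints1 of the Integrator complex, which cuts snRNA 3′ ends, had 196 and 232 reads (-0.20, -0.48 to 0.09). The import receptor Kpnb1 had 193 and 379 (0.53, 0.28 to 0.79). Among genes with at least 100 reads, the highest ratio was that of Tgs1, the cap hypermethylase of snRNAs, with 32 and 90 reads (1.05, 0.46 to 1.68), and the lowest was that of Tut1, which adds uridines to U6, with 77 and 79 (-0.40, -0.87 to 0.07). With TMM scaling, Prpf31 (0.51) and Tgs1 (0.68) stayed above 1.4, Sf3b3 (0.25), Zcrb1 (0.33) and Kpnb1 (0.16) did not, and Snrpb (-0.61), Prpf8 (-0.50), Zfp473 (-0.61), Ints1 (-0.57) and Tut1 (-0.77) were below 1/1.4.

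**Figure D5:**
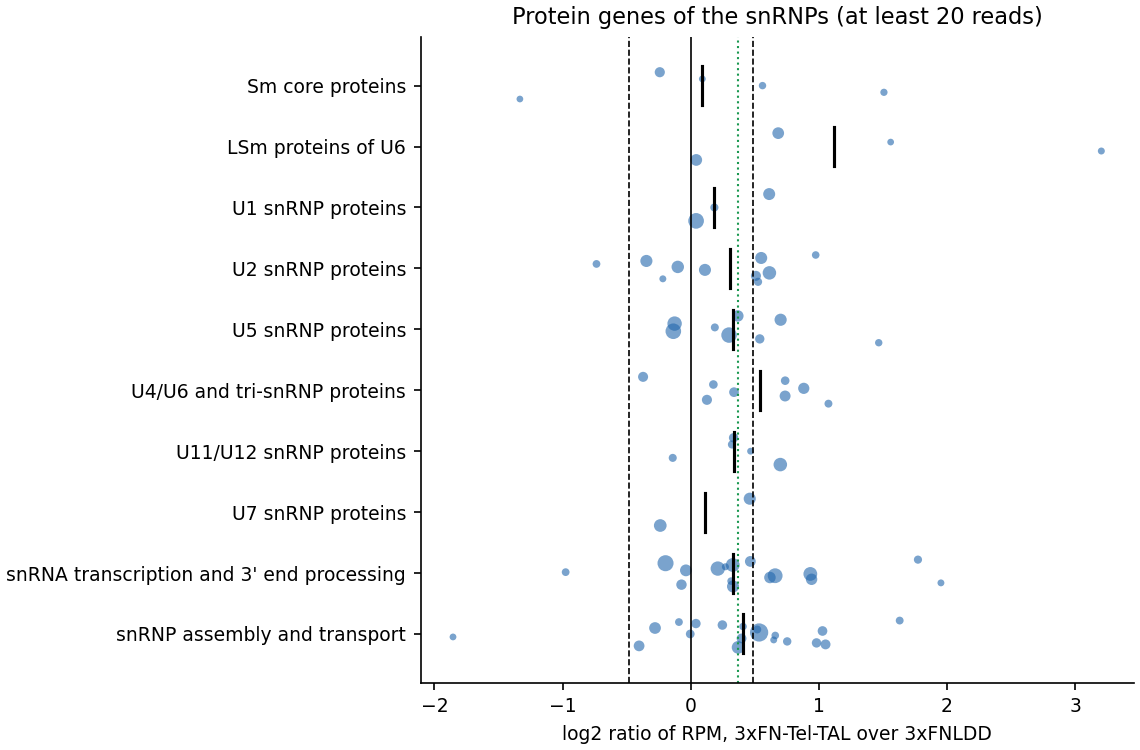
Ratio (log2) of each snRNP gene with at least 20 reads in 10 lists, with a point area that grows with the reads of both libraries together. Black bars are list medians, dashed lines mark 1.4 and 1/1.4, and the dotted line is 0 on the TMM scale. Points spread on both sides of the dotted line in most lists, and the most distant points are small, that is, poorly covered genes.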

How the data were processed

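RNA from enChIP with anti-FLAG antibody was sequenced in 2 libraries. The authors deposited a read count per Ensembl transcript, not normalized, and RPM, that count scaled to the library's summed counts (recomputed RPM agreed within rounding). The submitters' processing notes name cutadapt, GRCm38 and mm10. The aligner, the annotation and the handling of reads that match several copies are not given in the sources used here. U types, places and sequences were read from GENCODE M1 on NCBIM37, matched by transcript ID. Some sequences are not reported here.

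Ratios and exact 95% intervals were computed from counts and library totals (Python 3.11.15, numpy 2.4.6, scipy 1.17.1, pandas 2.3.3). Differences between snRNAs are log2 odds ratios with exact conditional intervals, and copies were aligned with Biopython 1.88. TMM used edgeR 4.0.16 in R 4.3.3. The members, gene lists and alternatives were chosen with earlier results of these data known. Named genes are the entries with at least 20 reads, the leading entry of each U type, Rn7sk, Rmrp, Rpph1, Terc, the most-read gene of each list and the list genes with the highest and lowest ratio. Other copies were named after their values were seen. The computation was tested on simulated data.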

Additional observations from a re-analysis of the deposited data

How the results depend on the processing

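No paired analysis was possible because there was 1 library per condition. Intervals cover counting error only, and depth limits what can be said of U5, U7, U11, U4atac and U6atac, each with fewer than 50 reads. The values below were recomputed one choice at a time.

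With TMM scaling, median-of-ratios scaling and totals that leave out RNAs above 1% of either library, U1 of the rule moved from 0.90 to 0.53, 0.59 and 0.59, U3 from 2.09 to 1.72, 1.77 and 1.77, U4 from 0.61 to 0.24, 0.29 and 0.29, and U2 reversed from 0.05 to -0.32, -0.26 and -0.26. The entries above 1.4 went from 12 to 9 under each, and the entries below 1/1.4 from 1 to 5, 3 and 3. The median entry went from 0.66 to 0.29, 0.34 and 0.34, and the snRNP genes above 1.4 from 34 to 15 under each. The share of all transcripts above 1.4 went from 44.2% to 24.6% with TMM scaling, and the share below 1/1.4 from 11.1% to 22.6%. For all gene symbols, the share above 1.4 went from 41.1% to 20.4% with TMM scaling. Shares of transcripts and symbols were not computed for median-of-ratios scaling or for totals that leave out RNAs above 1%. With a minimum of 50 reads, 4 entries were above and 0 below, with a median of 0.40, and with no minimum 37 were above and 7 below, with a median of 0.90. The 37 include entries with 0 reads in the control library. When the 95% bound had to pass the threshold, 5 were above and 0 below. With spliceosomal U types only, 3 were above and 0 below, beside 44.2% and 11.1% of all transcripts, with a median of 0.24. With a ratio threshold of 2, 8 entries were above and 0 below. A minimum of 10 reads gave 16 above 1.4 and 1 below 1/1.4, with a median of 0.72. Shares of all transcripts were not computed for the other minimums, the 95% bound or the threshold of 2.

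Alternatives added after seeing the data gave 0.70 for U1 over all listed copies and a median of 0.23 over all listed copies. They gave a difference of 0.82 between the most-read U1 and U2 copies (0.65 for the sums). Between the U1 stem-loop forms the difference was 0.76 without Gm22068 (0.87 with it), which keeps the copies that prompted the grouping. It also keeps Gm22220 and Gm23238, which share runs of 72 and 129 bases with Gm22068. Whether reads of Gm22068 were counted under these 2 copies was not tested. A pseudocount of 1 left all 20 values it was applied to within their intervals or within 1.5 times their counts.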

Other observations

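RefSeq gives the type snRNA to 25 further listed transcripts that the annotation used here does not hold, so no U type is stated for them. Of these, 4 had at least 20 reads and 2 of the 4 were above 1.4, beside the 44.2% of all transcripts. With TMM scaling 1 was above, beside 24.6%. Gm24407 had 1367 reads in the control library and 2670 in the Tel-TAL library, a ratio of 0.53 (0.43 to 0.62), and 0.16 with TMM scaling. Gm25890 had 194 and 346 reads (0.39, 0.14 to 0.66), Gm22513 had 14 and 23 (0.28, -0.74 to 1.35) and Gm24863 had 4 and 21 (1.95, 0.39 to 3.95).

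The U1 copy Gm22068 and the U3 RNA Rnu3b3 lie on the same strand of chromosome 11, with 20206 bases between them. Their ratios, 0.90 and 2.09, differed by 1.19 (1.14 to 1.23). The sequence of Gm22068 is annotated 7 times, 2 of them on chromosome 11, so its reads cannot be placed at this position. Of Rnu3b1, Rnu3b2, Rnu3b3 and Rnu3b4, only Rnu3b3 is listed. Rnu3b3 and Rnu3a, on different chromosomes, differed by 0.05 (-0.05 to 0.14).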
